A study of Mus musculus with 42 samples.

Results

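The transcriptome of wild-type (WT) mouse muscle without its nerve was compared with that of WT muscle in the basal state, across all genes measured. The 8 libraries compared, out of 42 in the series, are the 4 labelled as denervated WT muscle and the 4 basal WT libraries of the same sequencing set. All came from tibialis anterior (TA) muscle, a fast muscle at the front of the lower leg, of male C57BL/6J mice aged 4 months. Basal muscles came from mice with no intervention, and in the denervated group a piece of the sciatic nerve had been cut out in the right leg 3 days before collection. No transgene, deletion or drug was present in either group. The series also holds 4 WT libraries of the same set from limbs that were immobilized but kept their nerve, and these were used for a direct comparison of the 2 kinds of disuse. No group of the series is labelled as sham-operated, so effects of surgery cannot be told apart from loss of the nerve in either comparison. The labels do not tie each library to an animal, so p-values measure only the spread between libraries, which may be partly technical.

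A skeletal muscle fiber is held in its adult state by its motor nerve. Acetylcholine released at the neuromuscular junction depolarizes the fiber, and the resulting electrical activity keeps the genes of the fetal acetylcholine receptor silent outside the few nuclei under the junction. When the nerve is lost, class II histone deacetylases and the myogenic factor Myog are known to switch on receptor genes along the whole fiber, ubiquitin ligases mark contractile proteins for the proteasome, and the fiber loses mass. Denervation removes both the electrical activity and the signals that the nerve itself secretes, whereas immobilization lowers the load on the muscle and leaves the nerve in contact with the fiber.

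Expression was given as normalized counts, which the authors deposited on a linear scale. Values summed to between 1042064 and 1099736 in the basal libraries and to between 722430 and 811541 in the denervated libraries, and the 50 genes with the highest values held 50.7% to 51.8% of the sum in basal muscle and 36.1% to 38.9% in denervated muscle. The number of reads behind a library is unknown, so no counting error is given. Replicates correlated across genes at 0.979 to 0.987 in the basal group and at 0.983 to 0.991 in the denervated group on the log2 scale. Genes that reached 1 in any library of the set (13629 of 13809) were fitted as log2(value + 1) with limma, together with the other 3 groups of the set. These were immobilized WT muscle and basal and immobilized muscle of Sesn1 knockout mice, whose spread also enters every p-value of the fit. A gene was counted as changed at a Benjamini-Hochberg adjusted p below 0.05 if its log2 fold change was also 0.25 or more in either direction. Fold changes below are log2 values, denervated minus basal, on the log2(value + 1) scale, and the added 1 makes those of low genes too small. The fiber markers were abundant in both groups, with 49148 ± 4595 (mean ± SD, n = 4) normalized counts of Myh4, the myosin of the fastest fibers, in basal muscle and 14672 ± 2789 in denervated muscle. The 4 markers of liver and heart in the data, of which 3 were tested, summed to only 3.28 to 5.97 in basal libraries and 1.75 to 2.96 in denervated ones. The single one of them that passed the test, the cardiac myosin Myh6 (-1.06, adjusted p = 0.043), lost its call in 12 of 19 alternative settings.

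Between denervated and basal muscle, 7567 of the 13629 genes tested differed (55.5%). Of these, 3792 were higher (27.8%) and 3775 lower (27.7%) in denervated muscle. These shares are the background for the counts of family members against basal muscle below that were made on the deposited scale. At a change of at least 2-fold, 855 genes were higher (6.27%) and 1159 lower (8.5%). The median log2 fold change of all genes was -0.03. Because the values of the denervated libraries add up to less, scaling every library to an equal sum raises the fold change of a gene by a median of 0.43 and turns the split of 50.1% of calls being higher into 77.1%, with 6353 higher and 1886 lower. Counts given below with equal library sums stand beside these 6353 and 1886 of 13629 genes and an all-gene median of 0.35. A list can therefore gain higher members under this scaling without rising relative to all genes. Families whose balance of higher and lower members depended on this choice are named where they are described.

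The 6 genes given as markers of denervation separated the groups without overlap. Rrad, a small GTPase that restrains voltage-gated calcium channels (chr8:104628070-104631327, reverse strand, GENCODE M21 on GRCm38), was at 0.252, 0.6796, 0.958 and 0.616 normalized counts in the 4 basal libraries and at 136, 118, 99.7 and 125 in the 4 denervated libraries. It was all but absent before denervation and abundant in every library after it (log2 fold change 6.23, standard error (SE) 0.53, adjusted p = 3.2e-09). Myog, the myogenic transcription factor that activates receptor genes (chr1:134289989-134292548, forward strand), went from 0.969, 0.872, 1.55 and 1.49 to 116, 119, 85.4 and 95.98. Runx1, a runt-domain transcription factor known for its induction in denervated muscle (chr16:92601466-92826149, reverse strand), went from 1.597, 1.66, 1.305 and 1.52 to 109.8, 116, 85.1 and 82.1. For both factors the lowest denervated library stood far above the highest basal one, with changes of 5.57 (SE 0.24, adjusted p = 2.3e-13) and 5.28 (SE 0.25, adjusted p = 6.4e-13). Perm1, a muscle protein induced by the coactivator PGC-1 and estrogen-related receptors (chr4:156215868-156221307, forward strand), stood at 364, 370.3, 328 and 326 in basal libraries and at 9.16, 14.5, 9.55 and 8.74 after denervation. Kcng4, a modulatory subunit of voltage-gated potassium channels (chr8:119623854-119635680, reverse strand), went from 78.1, 103, 77.1 and 102 to 1.87, 1.09, 2.36 and 2.61. These were the largest decreases among genes with a symbol and a mean of at least 5 in the higher group, by 4.94 on the log2 scale for Perm1 (SE 0.12, adjusted p = 3.6e-17) and 4.95 for Kcng4 (SE 0.29, adjusted p = 1.6e-11).

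**Figure D1:**
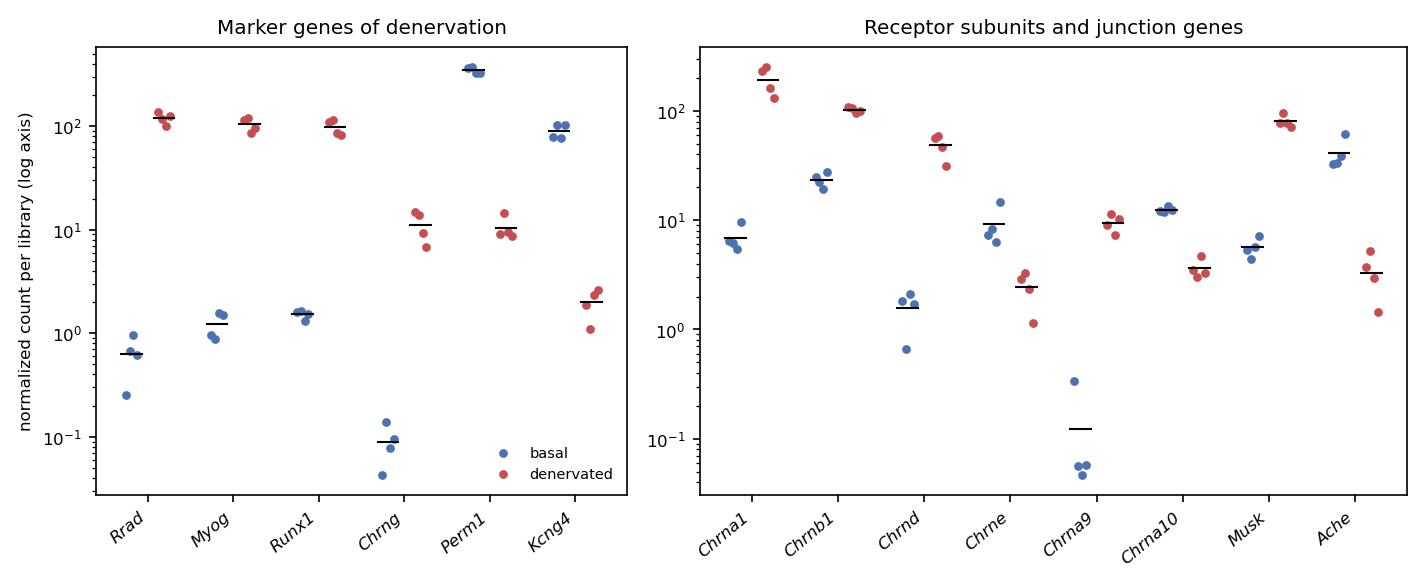
Normalized counts on a log axis in each of the 4 basal (blue) and 4 denervated (red) WT libraries, with the group mean as a black line, for the 6 marker genes (left) and for acetylcholine receptor subunits, Musk and Ache (right). The groups do not overlap for any gene shown, and the 2 directions within the receptor family (Chrna1, Chrnb1, Chrnd, Chrng and Chrna9 higher, Chrne and Chrna10 lower) can be read across the panels.

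The 7 acetylcholine receptor subunits tested all passed, 5 higher and 2 lower, and the subunits that tell the fetal muscle receptor from the adult one moved in opposite directions. Chrng, the gamma subunit of the fetal receptor (chr1:87204657-87212694, forward strand), was at 0.0429, 0.1402, 0.0777 and 0.0943 in basal libraries and at 14.9, 13.9, 9.22 and 6.81 in denervated libraries. All basal values lay under 1, where the scale compresses the change (3.43, SE 0.18, adjusted p = 3.7e-12). Chrne, the epsilon subunit that replaces gamma in the adult receptor (chr11:70614883-70619216, reverse strand), moved the other way, from 7.36, 8.26, 6.26 and 14.8 to 2.93, 3.32, 2.35 and 1.14 (-1.55, SE 0.34, adjusted p = 0.00061). Within each library, the log2 ratio of Chrng to Chrne was -7.42, -5.88, -6.33 and -7.29 in basal muscle and 2.35, 2.06, 1.97 and 2.58 in denervated muscle. The counts are not divided by transcript length, and the ratio was taken without the added 1. Basal Chrng values lay far under 1, and the data hold no value of 0 (lowest of the series 0.0048), so the size of the change is uncertain. Only its direction is meant, and the ratio was higher in every denervated library (exact two-sided permutation test, p = 0.0286, which is the smallest that 4 against 4 libraries can give, and 0.0572 after adjustment over 6 such values). The subunits shared by both receptors rose as well. Chrna1, which carries the acetylcholine binding site, went from 6.89 ± 1.85 to 193 ± 56.4 (4.599, adjusted p = 5.9e-12), Chrnd, the delta subunit, from 1.57 ± 0.627 to 48.6 ± 12.5 (4.27, adjusted p = 2.4e-10), and Chrnb1, the beta subunit, from 23.5 ± 3.504 to 102 ± 6.49 (2.08, adjusted p = 1.2e-12). Chrna9 and Chrna10, known together as the receptor of cochlear hair cells, parted: Chrna9 rose from 0.124 ± 0.141 to 9.49 ± 1.79 (3.21, adjusted p = 5.2e-11) and Chrna10 fell from 12.5 ± 0.7101 to 3.63 ± 0.764 (-1.56, adjusted p = 2.4e-08).

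Myogenic factors such as Myog bind the E-box, and the form CAGCTG, which reads the same on both strands, was searched in the 250 bases before the RefSeq start site (GRCm38.p6) of the receptor genes other than Chrnd, and of Musk and Myog. The stretches that hold it are shown because the receptor genes are the family in which the E-box is best known to act, with each CAGCTG in capitals and the rest in lower case, 5′ to 3′ on the strand of the gene. They lie at chr2:73580339-73580588 (reverse strand, Chrna1), chr1:87205561-87205810 (forward strand, Chrng), chr5:65966874-65967123 (forward strand, Chrna9), chr4:58285712-58285961 (forward strand, Musk) and chr11:70619195-70619444 (reverse strand, Chrne).
Chrna1: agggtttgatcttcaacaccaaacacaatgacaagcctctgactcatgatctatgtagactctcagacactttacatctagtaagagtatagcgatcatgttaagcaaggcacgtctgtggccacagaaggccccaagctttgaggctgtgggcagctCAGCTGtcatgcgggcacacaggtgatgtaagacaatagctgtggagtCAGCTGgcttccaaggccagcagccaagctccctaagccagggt
Chrng: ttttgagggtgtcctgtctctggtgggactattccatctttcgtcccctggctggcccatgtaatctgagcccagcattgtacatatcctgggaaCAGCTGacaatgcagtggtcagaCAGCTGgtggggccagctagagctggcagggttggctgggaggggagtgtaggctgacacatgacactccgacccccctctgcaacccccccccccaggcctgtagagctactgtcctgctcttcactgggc
Chrna9: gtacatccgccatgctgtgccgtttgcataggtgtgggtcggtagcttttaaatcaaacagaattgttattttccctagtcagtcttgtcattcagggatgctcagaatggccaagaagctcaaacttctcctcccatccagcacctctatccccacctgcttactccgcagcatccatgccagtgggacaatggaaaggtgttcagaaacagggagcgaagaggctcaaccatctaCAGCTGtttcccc
Musk: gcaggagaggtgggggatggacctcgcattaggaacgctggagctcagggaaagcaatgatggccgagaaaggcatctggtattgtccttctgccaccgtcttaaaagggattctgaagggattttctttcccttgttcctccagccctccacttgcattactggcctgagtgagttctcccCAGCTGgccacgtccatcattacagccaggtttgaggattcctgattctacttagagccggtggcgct
Chrne: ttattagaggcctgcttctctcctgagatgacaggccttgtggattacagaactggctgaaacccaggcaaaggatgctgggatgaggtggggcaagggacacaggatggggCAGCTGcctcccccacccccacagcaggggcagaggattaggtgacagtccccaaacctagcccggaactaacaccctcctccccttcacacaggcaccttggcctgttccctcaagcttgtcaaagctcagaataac
The motif begins 92 and 44 bases before the start of Chrna1, 155 and 132 bases before that of Chrng, 13 bases before that of Chrna9, 68 bases before that of Musk and 138 bases before that of Chrne, which fell. These RefSeq starts coincide with the start of a GENCODE M21 transcript, but GENCODE lets the gene begin earlier in some cases, so that the Chrng and Chrna9 stretches lie inside the gene as GENCODE draws it. The RefSeq start is 1154 bases downstream of the GENCODE gene start for Chrng, 32203 for Chrna9, 22 for Chrne and 2 for Musk. Chrnb1, Chrna10 and Myog had no CAGCTG in this window. Over all 32851 promoters of the same length, 13.0% held the motif, and among genes tested it was present in 11.04% of the promoters of genes that rose and in 14.13% of those of genes that fell. A match is a description of these letters and not a measurement of binding.

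Other genes of the neuromuscular junction changed in both directions, 8 of 22 higher (36.4% against 27.8% of all genes) and 5 lower (22.7% against 27.7%), or 12 and 4 with equal library sums. Musk, the receptor kinase that gathers acetylcholine receptors under the nerve, was at 5.39, 4.39, 5.65 and 7.16 in basal libraries and 77.2, 95.4, 77.1 and 70.6 in denervated ones. Every denervated library exceeded every basal one by a wide margin (3.61, adjusted p = 2.3e-12). Its coreceptor for agrin, Lrp4, rose by 1.23 (adjusted p = 5.7e-05), and Ncam1, a cell adhesion molecule that spreads over denervated fibers, rose by 2.49 (adjusted p = 4.5e-08). Ache, the enzyme that breaks down acetylcholine in the cleft, was at 32.9, 33.3, 38.7 and 61.6 before and 3.696, 5.17, 2.96 and 1.46 after denervation. It fell by 3.33 on the log2 scale (adjusted p = 1.2e-09) with no overlap. Among the other members that fell were Lamb2, the laminin of the synaptic basal lamina (-0.998), Dtna, a protein linked to dystrophin (-0.89), and the transcription factor Etv5 (-0.71).

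Among 43 regulators of myogenesis and of activity-dependent transcription, 17 rose (39.5%) and 14 fell (32.6%), or 22 and 9 with equal library sums. Of the 4 myogenic basic helix-loop-helix factors, Myog rose most, Myod1 went from 21.4 ± 1.58 to 104 ± 10.5 (2.23, adjusted p = 6.3e-09) and Myf6 from 61.1 ± 15.3 to 299 ± 36.3 (2.296, adjusted p = 1.8e-08). Myf5, the factor of activated satellite cells, was at 1.24 ± 0.305 and 1.28 ± 0.207 and did not pass the test (0.03, SE 0.19). Hdac4, the deacetylase that carries the denervation signal, stood at 33.95, 29.6, 28.9 and 39.2 in basal libraries and at 124, 118, 152 and 160.2 in denervated ones. The rise was seen in every library (2.04, SE 0.13, adjusted p = 3.4e-11). Dach2, the corepressor of Myog that Hdac4 is known to repress, moved in the opposite direction, from 9.82, 9.14, 6.64 and 4.61 to 0.575, 0.383, 0.635 and 0.931. All denervated values of Dach2 fell below 1, with a change of -2.35 (SE 0.26, adjusted p = 1.2e-07). Sik1, a kinase that phosphorylates class II deacetylases, rose from 4.87 ± 0.951 to 71.7 ± 3.098 (3.64, adjusted p = 1.1e-12). The orphan nuclear receptor Nr4a1, which responds to nerve activity, fell from 152 ± 49.2 to 14.2 ± 1.71 (-3.27, adjusted p = 1.3e-06), and so did the large Maf factor Maf (-2.402, adjusted p = 1.9e-10). The related Nr4a3 varied widely in basal muscle, at 13.6, 2.37, 32.6 and 54.6, and its groups overlapped although it passed the test (-2.54, SE 0.73, adjusted p = 0.0052).

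The genes with the largest changes came from several families. Ankrd1, an ankyrin repeat protein bound to titin, was at 17.998, 20.9, 17.9 and 4.82 in basal libraries and at 813, 945, 647 and 777 after denervation. The basal values differed among themselves, with replicate 4 the lowest, yet all lay far under the denervated ones (5.75, SE 0.54, adjusted p = 1.4e-08). Ces2c, a carboxylesterase, rose from 0.105 ± 0.0549 to 34.1 ± 6.67 (4.97), Gadd45a, a growth arrest protein that acts in muscle atrophy, from 15.7 ± 1.13 to 406 ± 34.9 (4.61), Krt18, a keratin, from 0.0918 ± 0.0801 to 24.1 ± 7.02 (4.48), and Ttc9, a tetratricopeptide repeat protein, from 1.47 ± 0.183 to 49.03 ± 11.8 (4.32). The adjusted p of these increases was at most 1.7e-10. Among the large decreases were 2 further genes of potassium channels, Lrrc38, an accessory subunit of calcium-activated channels (-4.33, from 45.9 ± 3.901 to 1.36 ± 0.4898), and Kcnc1, a fast voltage-gated channel (-4.12, from 169 ± 27.3 to 8.77 ± 1.08). Mettl21c, a methyltransferase of muscle proteins, fell by 4.44 on the log2 scale, Kbtbd13, a kelch protein of the contractile apparatus mutated in nemaline myopathy, by 4.15, and Ky, a peptidase that keeps muscle fibers intact, by 4.09. Tmem233 (-4.295) and Smco1 (-4.26), membrane proteins of less known function, and Mlf1 (-3.84) complete the largest decreases, all with an adjusted p of at most 4.5e-08 and with no overlap between the groups.

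The genes of the adult fast sarcomere fell almost as a whole, 25 of 26 (96.2% against 27.7% of all genes) with a median of -0.9997 against -0.03 for all genes. Under quantile normalization, which forces the abundant genes of all libraries to equal levels, 12 remained lower and 2 were higher, and with equal library sums 19 were lower. Mylk2, the kinase of the regulatory myosin light chain, was at 1203, 1144, 1093 and 1393 in basal libraries and 115, 99.1, 167 and 180.5 in denervated ones. The groups lay far apart (-3.13, adjusted p = 6.4e-12). Myoz3, a Z-disc protein that binds calcineurin, fell by 3.03 on the log2 scale (adjusted p = 6.9e-10). The single member that rose was Mybph, a myosin-binding protein, from 6.64, 8.68, 9.03 and 5.92 to 167, 222, 96.2 and 54.4. Its denervated values spread over a wide range, all above the basal ones (3.81, SE 0.61, adjusted p = 1.8e-05).

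The 3 adult fast myosin heavy chains fell together. Myh4, the IIb chain, went from 52315, 42367, 50321 and 51589 to 10823, 14666, 17338 and 15861 normalized counts (-1.76, adjusted p = 1.3e-07). Myh1, the IIx chain, went from 12102 ± 2333 to 4041 ± 678 (-1.58, adjusted p = 1.2e-06) and Myh2, the IIa chain, from 957 ± 347 to 156 ± 58.5 (-2.597, adjusted p = 1.4e-05). As a share of all myosin heavy chain counts in a library, Myh4 held 78.9 ± 4.998% in basal and 77.4 ± 2.95% in denervated muscle (exact permutation test, p = 0.629), Myh1 19.5 ± 4.42% and 21.5 ± 2.42% (p = 0.486, exact) and Myh2 1.55 ± 0.605% and 0.887 ± 0.513% (p = 0.143, exact), and none of these shares passed the test. Without basal replicate 4 the difference in the Myh4 share changed sign, to 0.075 percentage points. The developmental chains Myh3 and Myh8 together took 0.009299, 0.00796, 0.00752 and 0.00497% in basal libraries and 0.427, 0.157, 0.108 and 0.0487% in denervated ones. The groups did not overlap (exact permutation test, p = 0.0286, 0.0572 adjusted), but the share stayed under 1% and was highest in denervated replicate 1, without which the difference between the means was 0.0973 percentage points instead of 0.178. The slow chain Myh7 also took a larger share, 0.00238 ± 0.0007903% and 0.011004 ± 0.00653% (p = 0.0286, 0.0572 adjusted, exact), a difference of 0.0086 points that was 0.0055 without the same library, while its level did not pass the test (0.23, adjusted p = 0.74).

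**Figure D2:**
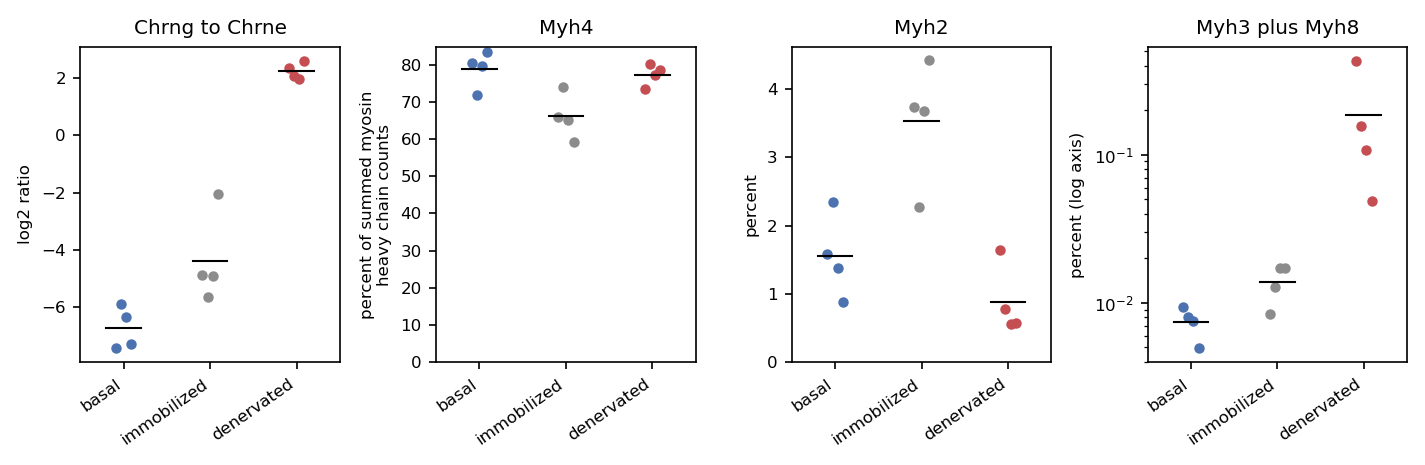
Values per library in basal (blue), immobilized (grey) and denervated (red) WT muscle, with the mean as a black line: the log2 ratio of Chrng to Chrne, and the percent of the summed myosin heavy chain counts held by Myh4, by Myh2 and by Myh3 plus Myh8 (the last on a log axis). The receptor ratio is higher in the 4 denervated libraries than in any other, the Myh4 shares of basal and denervated muscle overlap, and the share of Myh3 plus Myh8 is higher in denervated than in basal muscle.

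Of the developmental sarcomere genes, 4 of 7 rose and 1 fell. Myh3, the embryonic myosin, was at 2.86, 1.56, 1.24 and 0.922 in basal libraries and at 43.97, 26.1, 18.97 and 6.36 in denervated ones (3.01, SE 0.45, adjusted p = 7.4e-06). Myom3, an M-band protein, rose by 2.605 (adjusted p = 1.2e-06), Myl4, the embryonic light chain, by 1.77 (adjusted p = 7.4e-05) and Tnnt2, the cardiac and embryonic troponin T, by 1.26 (adjusted p = 0.00032). Myh8, the perinatal myosin, was lowest at 2.66 and highest at 19.03 after denervation, and its change of 0.77 did not pass the test (adjusted p = 0.12) although it did with equal library sums and without denervated replicate 2. Nebl, the nebulette gene, was under 1 in every library (-0.03, adjusted p = 0.92). Against the rest, Actc1, the cardiac alpha actin that is also expressed in fetal muscle, went from 66.5, 62.6, 92.02 and 35.3 to 23.5, 6.85, 7.396 and 7.76. All denervated values were lower, that of replicate 1 the least (-2.501, SE 0.57, adjusted p = 0.00081).

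Slow sarcomere genes showed no common direction, with 2 of 12 higher and 4 lower, and 4 higher and 3 lower with equal library sums. Myl3, the slow essential light chain, fell by 2.55 (adjusted p = 3.8e-06), and so did Myh7b (-1.098), Mybpc1, the slow myosin-binding protein C (-0.96), and Tpm3, the slow tropomyosin (-0.52), the last with adjusted p = 0.031 and a call that 6 of 19 alternatives did not keep. Atp2a2, the slow calcium pump, rose by 1.196 (adjusted p = 2.3e-06). Tnni1, the slow troponin I, rose by 1.13 (adjusted p = 0.013), a call that rested on denervated replicate 1, since the change was 0.73 without it.

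Genes of proteins that respond to stretch, a list of 16, rose in 9 cases (56.2%) and fell in 3. Beside Rrad and Ankrd1, the titin-binding Ankrd2 was at 27.6, 35.2, 28.6 and 20.7 in basal libraries and at 549, 714, 394 and 327 in denervated ones. Every value after denervation exceeded the basal ones by far (4.06, adjusted p = 1.4e-10). The members that fell were Fhl3, a LIM domain protein (-1.73, adjusted p = 1.8e-10), Xirp2, an actin-binding protein (-1.300, adjusted p = 2e-05) and Lmcd1, another LIM protein (-1.29, adjusted p = 0.00046).

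The list of ubiquitin ligases and related genes of atrophy did not rise as a whole, with 10 of 30 higher (33.3% against 27.8% of all genes) and 7 lower (23.3% against 27.7%). Its median change was 0.11, and 4 members rose by at least 2-fold. The split of this list depends on the scaling, with 19 higher and 4 lower with equal library sums and 15 and 6 under quantile normalization. Trim63, the ligase MuRF1 that targets proteins of the thick filament, was at 163, 173, 147 and 222 in basal libraries and at 752, 659, 998 and 1174 after denervation. Fbxo32, the ligase subunit atrogin-1, went from 367, 288, 252 and 390.04 to 1186, 1161, 1597 and 2009. The groups did not overlap for either gene (2.32, SE 0.28, adjusted p = 4.5e-07, and 2.18, SE 0.40, adjusted p = 8.9e-05). Fbxo30, a ligase subunit under BMP control, rose by 1.19 (adjusted p = 1.6e-06), and Ube2d1, a conjugating enzyme, fell by 1.02 (adjusted p = 1.5e-06). The ASB family, substrate adaptors of cullin ligases that are enriched in muscle, fell with 10 of 12 lower (83.3%) and a median of -1.498. Asb18 fell from 41.6 ± 6.404 to 4.19 ± 0.424 (-3.03), Asb12 by 2.79 and Asb15 by 2.75, whereas Asb5 rose by 0.86 (adjusted p = 0.0085) and Asb1 by 0.38, the last with overlapping groups and a call lost without basal replicate 3 (0.29), basal replicate 4 (0.32) or denervated replicate 2 (0.34).

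Transcripts of the proteasome rose in most cases. Of 17 genes of its core, 14 were higher (82.4% against 27.8%), with a median change of 0.98. Psma5 went from 37.6, 37.9, 33.9 and 45.7 to 98.01, 107, 111 and 121. This was the largest change of the core, a rise in every library (1.48, adjusted p = 1.3e-09), followed by Psma7 (1.33) and Psma4 (1.25). The 3 core members that were lower were Psmb8, Psmb9 and Psmb10, which are the catalytic subunits of the immunoproteasome. Psmb10 fell from 9.16 ± 0.407 to 5.23 ± 1.48 (-0.74, adjusted p = 0.00074), the groups of Psmb8 (-0.81, adjusted p = 0.017) and Psmb9 (-0.84, adjusted p = 0.0097) overlapped, and none of the 3 passed the test with equal library sums, although each kept a negative sign. Of the regulatory particle and activators, 22 of 26 rose (84.6%), led by Psmd11, Psmd14 (1.49) and Psmc4 (1.46), while Psme1, a subunit of the interferon-inducible activator, fell by 0.99 (adjusted p = 1.9e-08). Of 5 assembly chaperones, Psmg2, Psmg3, Psmg4 and Pomp rose.

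Autophagy genes were called higher in 25 of 46 cases (54.3%) and lower in 9 (19.6%), or in 31 and 3 with equal library sums. Gabarapl1, a protein of the autophagosome membrane, was at 35.4, 32.5, 39.3 and 39.1 in basal libraries and 130.3, 141, 118 and 137 in denervated ones. It rose in all of them (1.82, adjusted p = 1.7e-07), as did the cargo receptor Sqstm1 (1.55, from 418 ± 71.5 to 1222 ± 143) and Map1lc3a (1.01). The starting kinase Ulk2 fell by 1.07, Tecpr2, a factor of autophagosome formation, by 1.64, and Pink1, the kinase that tags damaged mitochondria, by 0.85. Lysosomal genes were mixed and near the shares of all genes, 9 of 29 higher (31.0% against 27.8%) and 6 lower (20.7% against 27.7%). With equal library sums 15 were higher and 3 lower. The protease cathepsin L, Ctsl, rose from 78.8 ± 3.33 to 298 ± 24.8 (1.900, adjusted p = 2.5e-11). Lgmn, another lysosomal protease, rose by 1.01 and Ctsd by 0.95, and Ctsc fell by 1.32. Of 19 genes of the proton pump that acidifies lysosomes, 8 rose (42.1%), among them the catalytic subunit Atp6v1a (2.03, adjusted p = 8.2e-11) and Atp6ap2 (1.66), and Atp6v0e2 fell, while with equal library sums 16 were higher and none lower. Calpains and caspases had no common direction, with 4 of 15 higher and 5 lower. Capn2 (0.74), Capns1 and Casp9 were among those that rose, and Capn3, the calpain bound to titin (-2.25, adjusted p = 1.3e-11), Capn1 (-1.16), Capn6, Casp8 and Capn7 fell. With equal library sums the counts of calpains and caspases were 6 higher and 2 lower, with a median of 0.17 against 0.35 for all genes.

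Transcripts of the respiratory chain fell almost throughout. All 38 genes of complex I that were tested were lower, beside 27.7% of all genes, with a median of -0.99 and a range from -1.56 for Ndufb10 to -0.57. The counts were 14 of 14 for complexes II and III (median -1.18), 12 of 15 for complex IV (median -0.93) and 16 of 17 for complex V (median -1.07), and no member of these complexes was higher. With equal library sums, 36, 14, 11 and 15 genes were still lower. Atp5a1, the alpha subunit of ATP synthase, was at 2752, 2925, 2647 and 2632 in basal libraries and at 1026, 1021, 1124 and 1176 in denervated ones. The values of the groups lay far apart (-1.33, adjusted p = 3.4e-11). Sdhd, the membrane anchor of succinate dehydrogenase, fell by 1.46 and Cox7a1, the muscle form of a cytochrome oxidase subunit, fell by 1.56, and Cox8b is another muscle form (log2 fold change -1.29). The 13 genes encoded in mitochondrial DNA were lower too, with mt-Nd2, a subunit of complex I, from 17106 ± 1603 to 8829.9 ± 702 (-0.95, adjusted p = 2e-06), but under quantile normalization none of them was lower and 2 were higher (median 0.13), and with equal library sums 6 were lower, so that their direction depends on the normalization.

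Genes of fuel pathways fell as well. In the citrate cycle and around pyruvate dehydrogenase, 23 of 25 genes were lower (92.00%, median -0.97), with Idh2 falling by 2.39, Pdp1, the phosphatase that activates pyruvate dehydrogenase, by 2.22 and Idh3a by 2.01, while Pcx, pyruvate carboxylase, rose by 0.79 (adjusted p = 1.9e-05). In fatty acid uptake and oxidation, 30 of 39 were lower (76.9%). Lpl, the lipase that frees fatty acids at the vessel wall, was at 500.4, 452, 456 and 304 in basal libraries and at 73.4, 61.6, 73.1 and 77.6 in denervated ones. The decrease was 2.55 on the log2 scale (adjusted p = 5.2e-11), next to 2.29 for the fatty acid carrier Fabp3 and 2.07 for the thiolase Acaa2. The 5 that rose were Plin2, which coats lipid droplets (0.71, adjusted p = 0.0006), Acsl6, Pnpla2, Slc27a4 and Acacb. Of the enzymes that break down branched-chain amino acids, 17 of 21 were lower (80.95%), with Ppm1k, the phosphatase that activates the pathway, falling by 1.77, and 2 were higher, among them Pcca.

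Glycolysis, the main fuel path of this fast muscle, did not stand apart: 27 of 40 genes of glycolysis and glycogen metabolism were lower (67.5%, median -1.03) and 6 higher. Tpi1, triosephosphate isomerase, was at 2305, 2295, 2331 and 2555 in basal libraries and 261, 256, 299 and 331 in denervated ones. Its change of -3.05 (SE 0.13, adjusted p = 1.4e-13) was close to those of Pfkfb1, which makes the activator of phosphofructokinase (-3.32), and Gpd1, the glycerol phosphate dehydrogenase (-2.92). The increases with the largest fold change were those of Stbd1, which tethers glycogen to membranes (1.98, from 46.3 ± 4.24 to 185 ± 14.2), Gbe1, the glycogen branching enzyme (1.703, adjusted p = 6.1e-12), and Slc2a1, the basal glucose transporter (1.03, adjusted p = 0.0018).

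Regulators of oxidative metabolism were lower in 18 of 28 cases (64.3%) and higher in 4, or in 12 and 9 with equal library sums. Ppargc1a, the coactivator PGC-1 alpha that drives mitochondrial genes, stood at 47.02, 49.7, 45.7 and 45.1 in basal libraries and at 11.4, 8.21, 11.2 and 12.3 in denervated ones. The basal values spread little and the groups were far apart (-2.04, SE 0.18, adjusted p = 4.5e-09). The nuclear receptors Rxrg and Ppara fell by 2.27 and 2.16. The 4 that rose were Pprc1, a coactivator of the same family that responds to growth signals (0.96, adjusted p = 4.9e-06), Ppard, Nrip1, which represses oxidative genes, and Prkaa1.

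**Figure D3:**
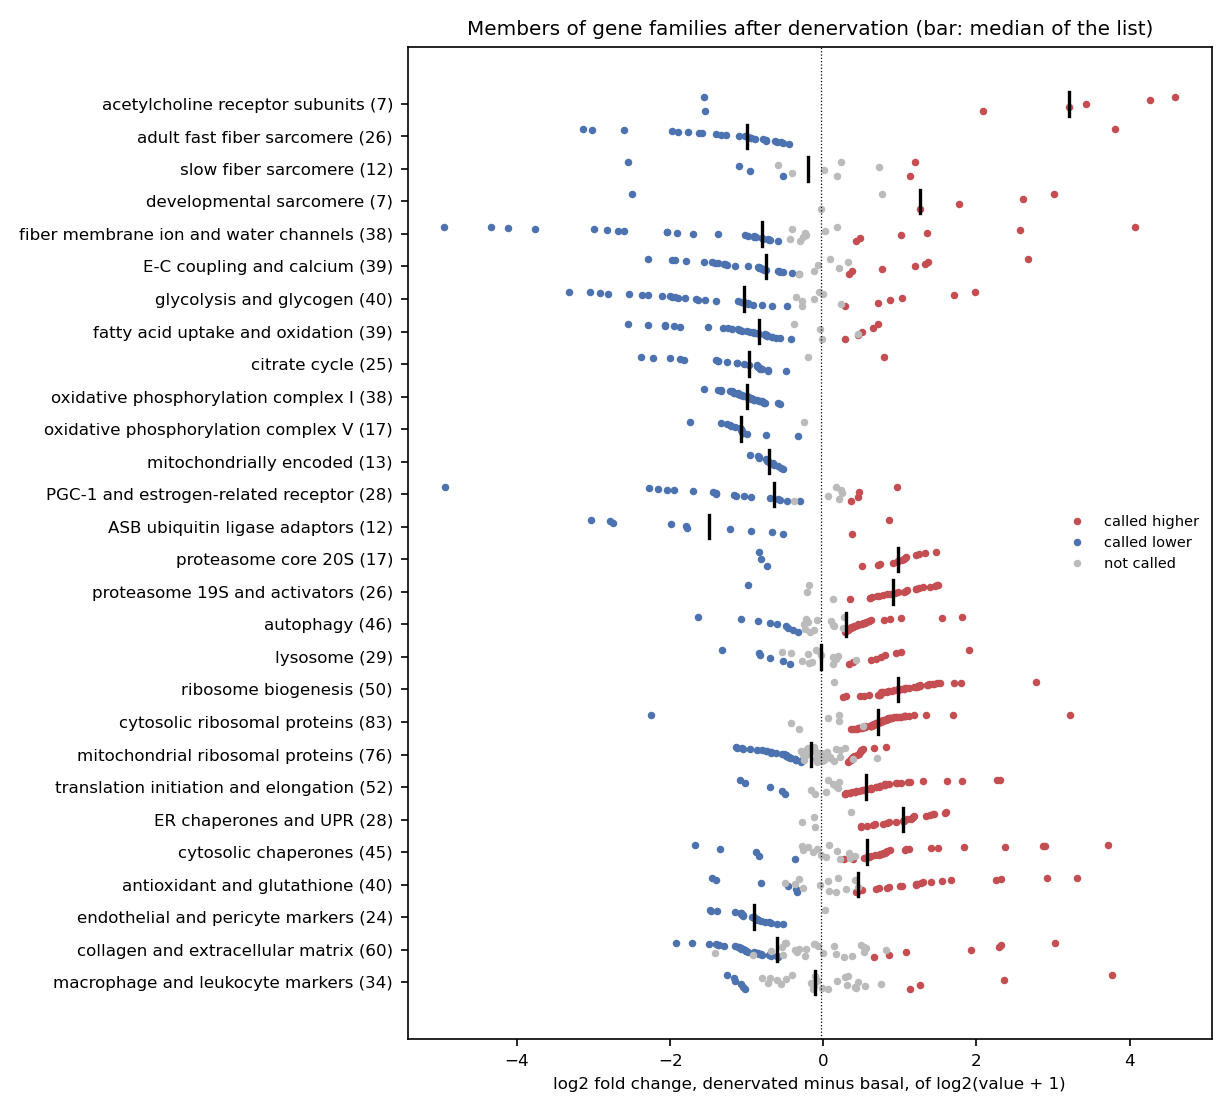
Log2 fold change, denervated minus basal, of each tested member of 28 gene families, 1 point per gene, in red where called higher, blue where called lower and grey where not called. The black bar is the median of the family, the dotted line the median of all genes tested (-0.03), and the number of members is in parentheses. The fast sarcomere and oxidative families lie left of the line, and ribosome biogenesis, proteasome and endoplasmic reticulum (ER) chaperone families lie right of it.

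Genes that couple the nerve impulse to contraction fell in 26 of 39 cases (66.7%) and rose in 7. Hrc, a calcium-binding protein of the sarcoplasmic reticulum, fell from 916 ± 19.1 to 191 ± 48.3 (-2.29), Casq1, the calcium store protein of fast fibers, by 1.98, and Camk2a, a calmodulin kinase, by 1.94. Pln, phospholamban, which inhibits the calcium pump Atp2a2, was at 1.78, 2.06, 1.39 and 1.28 in basal libraries and 21.8, 14.4, 15.01 and 12.6 in denervated ones. It rose in every library (2.67, adjusted p = 8e-10). Cacng1, a subunit of the calcium channel that senses voltage, rose by 1.36, and Dysf, the membrane repair protein dysferlin, by 1.32. Channels of the fiber membrane were lower in 24 of 38 cases (63.2%). Kcnn3, a calcium-activated potassium channel known for its appearance in denervated fibers, was an exception, at 1.62, 2.01, 2.704 and 1.53 before and 50.2, 61.9, 46.6 and 37.5 after denervation. No other channel of the list rose as much (4.07, adjusted p = 5.8e-12), and next came Panx1, a pannexin channel that releases ATP (2.57), and Abcc8, a regulator of ATP-sensitive channels (1.36). Of the dystrophin complex, 12 of 27 were lower, with the sarcoglycan Sgcd falling by 2.25, and Pomt1, Pomt2, Murc and Itga7 were higher, of which 2 kept their call without denervated replicate 1. With equal library sums the dystrophin counts were 11 higher and 8 lower, with a median of 0.17 against 0.35 for all genes. Among enzymes and muscle-specific proteins of fast fibers, 22 of 30 were lower (73.3%), including Ampd1, the AMP deaminase of muscle (-2.61), and Slc16a3, the lactate exporter (-2.59), and 4 were higher, namely Lmod2, Pdlim3, Mettl21a and Smpx.

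Genes of the machinery that makes ribosomes rose almost throughout. Of 50 genes of ribosome biogenesis, 49 were higher (98.00% against 27.8% of all genes), with a median change of 0.98, and none was lower. The remaining gene, Ubtf, a factor of RNA polymerase I, changed by 0.14 (adjusted p = 0.29). Myc, the transcription factor that drives ribosome production, was at 2.02, 1.51, 1.58 and 1.64 in basal libraries and 16.6, 16.2, 14.1 and 23.8 in denervated ones. It rose by 2.78 (adjusted p = 6.9e-10), ahead of Nhp2, a protein of the ribonucleoproteins that modify ribosomal RNA (1.796), and Bop1, needed for the large subunit (1.71). Genes for the proteins of the cytosolic ribosome followed with 76 of 83 higher (91.6%, median 0.72). Reads of these genes can be shared with their many processed pseudogenes, and RSEM divides such reads by estimation.

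A pair of ribosomal paralogs moved in opposite directions. Rpl3, the form of most cells (chr15:80077791-80091868, reverse strand), was at 31.1, 37.1, 42.2 and 28.02 in basal libraries and at 358, 385, 308 and 273 in denervated ones. Rpl3l, the form of adult striated muscle (chr17:24727820-24736143, forward strand), went from 511, 515, 515 and 487 to 93.9, 89.5, 117 and 127. Every denervated library was above the basal range for Rpl3 and under it for Rpl3l (3.23 for Rpl3, SE 0.18, adjusted p = 7.9e-12, and -2.25 for Rpl3l, SE 0.10, adjusted p = 5.4e-13). Reads of the pair may also be divided by estimation. Of the list, Rpl3l was the only gene called lower (2 were without basal replicate 1), and Rpl3 had the largest increase, ahead of Rpl10 (1.698) and Rpl12 (1.34). Genes of mitochondrial ribosomal proteins did not follow the cytosolic ones, with 15 of 76 higher and 30 lower, from 0.81 for Mrps18b to -1.14 for Mrpl34. With equal library sums the counts were 37 and 7, with a median of 0.29 against 0.35 for all genes.

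Translation factors rose in 39 of 52 cases, beside 27.8% of all genes. Eif4a1, the helicase that unwinds messenger RNA, rose from 54.4 ± 6.298 to 272 ± 15.2 (2.31), Eif6, which binds the large subunit, by 1.81, and so did Eif4ebp1, which blocks the cap-binding protein (2.28, from 25.6 ± 2.99 to 128 ± 16.4). The 5 that fell were Eef1a2, the elongation factor form of adult muscle (-1.02, adjusted p = 1.8e-08), Pabpc4 (-1.08), Eif4e, the cap-binding protein itself (-0.697), Eif4e3 and Eif4ebp2. The last 3 did not pass the test with equal library sums, where 46 factors were higher and 2 lower. Of the aminoacyl-tRNA synthetases, 20 of 39 rose, led by Vars (1.37) and Lars (1.07), and the 4 that fell, Fars2, Pars2, Cars2 and Hars2, are all mitochondrial forms. Of these only Fars2 remained lower with equal library sums, where 29 synthetases were higher and Cars2 and Hars2 changed sign. Amino acid transporters did not rise as a whole. Of 23 genes, 9 were higher (39.1% against 27.8% of all genes) and 4 lower, with a median change of -0.15 against -0.03 for all genes. Slc7a5, the leucine carrier of the plasma membrane, was at 1.24, 1.28, 0.675 and 2.004 in basal libraries and 14.2, 20.1, 13.4 and 12.2 in denervated ones. It rose in every library (2.804, adjusted p = 4e-10), as did Slc38a2 (1.31) and Slc7a1, a carrier of arginine and lysine (1.27). The related Slc7a2 fell by 1.93 (adjusted p = 9.6e-09), and Slc16a10, Slc1a5 and Slc38a10 were lower as well, but with equal library sums only 1 transporter of the list, Slc7a2, was lower.

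**Figure D4:**
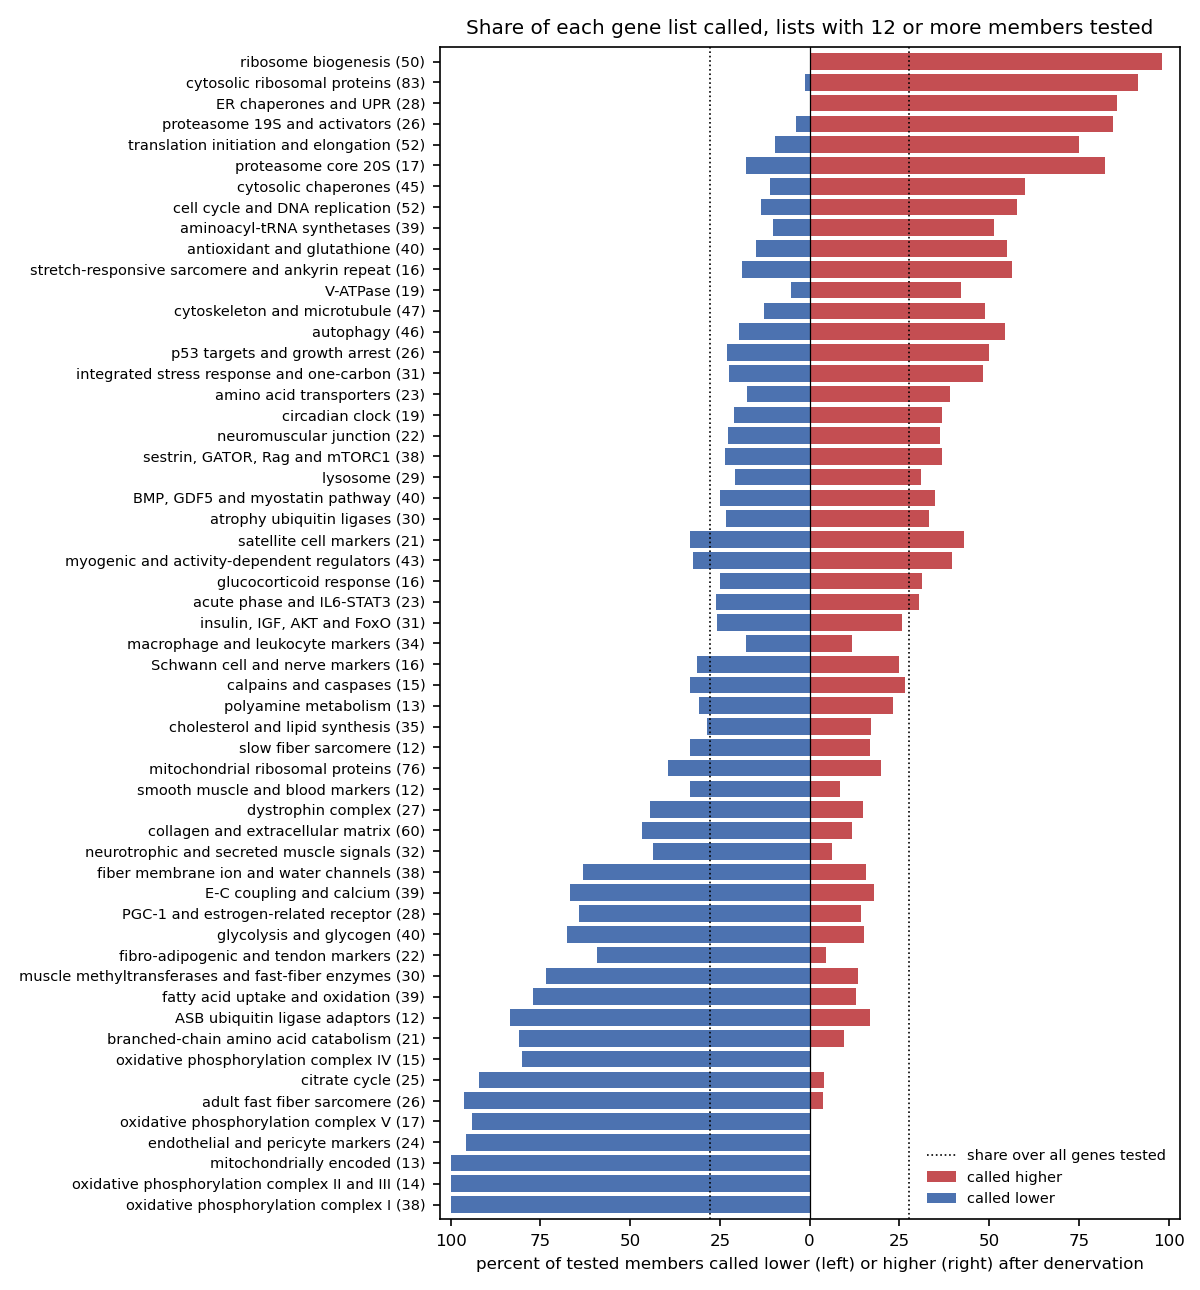
Percent of the tested members of each gene list that were called higher (red, to the right) or lower (blue, to the left) after denervation, for lists with 12 or more members, with the number of members in parentheses. The dotted lines are the shares over all genes tested, 27.8% higher and 27.7% lower, and lists are ordered by the difference between the bars, from ribosome biogenesis at the top to complex I at the bottom.

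Chaperones of the endoplasmic reticulum rose with the ribosome genes, 24 of 28 higher (85.7%, median 1.04) and none lower. Xbp1, the transcription factor of the unfolded protein response, was at 38.97, 34.6, 41.6 and 38.3 in basal libraries and at 111, 116, 113 and 133 in denervated ones. The groups were well separated (1.598, adjusted p = 1.6e-08), and the protein disulfide isomerase P4hb rose by 1.59 and calnexin, Canx, by 1.45. Cytosolic chaperones rose in 27 of 45 cases. The largest increases were in small heat shock proteins that stabilize the sarcomere. Hspb7 went from 146 ± 26.98 to 1908 ± 117 (3.72, adjusted p = 2.2e-11), Hspb1 from 55.4 ± 12.7 to 421 ± 99.7 (2.900) and Hspb8 from 297 ± 53.6 to 2176 ± 285 (2.87). Smyd1, a methyltransferase that aids myosin folding, fell by 1.68, and Dnaja4, Hspb6, Dnajb5 and Bag1 were lower.

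The integrated stress response did not move as a unit, 15 of 31 genes higher (48.4%) and 7 lower (22.6%). Ppp1r15a, which ends the translation block, rose from 20.7 ± 5.01 to 77.9 ± 5.75 (1.89), Mthfd2, a mitochondrial folate enzyme, by 1.84 and the transcription factor Cebpb by 1.67. Ddit3, the factor CHOP that is linked to prolonged stress, was at 14.2, 22.7, 13.8 and 13.9 in basal libraries and 7.07, 4.87, 7.41 and 6.99 in denervated ones, and it fell by 1.16 (adjusted p = 1.4e-05), and the serine synthesis enzyme Psph fell by 1.09. Antioxidant genes rose in 22 of 40 cases. Hmox1, heme oxygenase, went from 4.99, 5.21, 5.06 and 5.53 to 60.9, 48.2, 63.7 and 70.9. The increase was seen in all 4 libraries (3.31, SE 0.36, adjusted p = 1e-07), next to Srxn1, sulfiredoxin (2.92), and Txn1, thioredoxin (2.32). Enzymes of the mitochondria were among those that fell, with Sod2 at -1.45 and Gstk1 at -1.401. Of 6 genes of zinc binding and transport, the metallothioneins Mt2 (3.85, adjusted p = 2.1e-05) and Mt1 (2.32, adjusted p = 0.0031) and the transporter Slc39a14 rose.

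The genes of polyamine synthesis split within the pathway. Odc1, which makes putrescine, was at 67.7, 56.02, 50.3 and 99.8 in basal libraries and 399, 544, 495 and 531 in denervated ones. Amd1, which makes the aminopropyl donor of the next steps, went from 1362, 1052, 1040.2 and 2146 to 140.1, 208, 181 and 189. The former rose by 2.87 (adjusted p = 3.1e-11) and the latter fell by 2.905 (adjusted p = 2.4e-08), with no overlap in either. Srm, spermidine synthase (1.77), and Sms rose, and Smox, spermine oxidase (-2.905), Oaz2 and Amd2, a near copy of Amd1 whose reads may be shared with it, fell. These counts of 3 and 4 among 13 became 6 higher and 3 lower with equal library sums. There the median was 0.25 for the list and 0.35 for all genes.

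Among growth signals, genes of insulin and IGF signalling changed in equal numbers, 8 of 31 higher and 8 lower, although with equal library sums 15 were higher and 6 lower. Akt1 rose from 50.1 ± 4.73 to 168 ± 17.7 (1.72, adjusted p = 8.4e-08) and Igfbp5, a secreted IGF carrier, by 1.34, while Irs1, the adaptor of the insulin receptor, fell from 44.1 ± 10.3 to 9.08 ± 2.94 (-2.18), as did Grb14, an inhibitor of that receptor (-2.498). In the sestrin and mTORC1 list, 14 of 38 rose (36.8% beside 27.8% of all genes) and 9 fell, against 27 and 2 with equal library sums. Of the sestrins, which restrain mTORC1 when amino acids are short, Sesn1 was at 28.1, 22.5, 29.7 and 22.8 in basal libraries and at 12.3, 12.9, 10.5 and 12.6 in denervated ones. Sesn2 went from 3.07 ± 1.34 to 6.11 ± 1.82 (0.83, adjusted p = 0.006), with overlapping groups, and Sesn3 from 2.77 ± 0.5003 to 5.88 ± 1.01 (0.86, adjusted p = 0.0016). The family thus parted in direction, since Sesn1 was lower in all 4 denervated libraries (-1.03).

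In the BMP and myostatin pathway, 14 of 40 rose and 10 fell, or 19 and 5 with equal library sums. Gdf5, the BMP ligand that is known to restrain atrophy after denervation (chr2:155941023-155945367, reverse strand), was at 0.213, 0.114, 0.186 and 0.0283 in basal libraries and at 21.3, 21.8, 17.3 and 18.8 in denervated ones. Each basal value was under 1 and each denervated value far above it (4.19, adjusted p = 4e-12). Id2, a target of BMP signals, rose by 2.05, and Tgfbr1, a TGF-beta receptor, by 2.03. The activin receptors Acvr2b, which binds myostatin, and Acvr1 fell by 1.35 and 1.16. Secreted signals of muscle were lower in 14 of 32 cases (43.8%). Ntf5, the neurotrophin that muscle makes in response to activity, was at 6.82, 8.02, 9.43 and 9.69 in basal libraries and 0.402, 0.301, 0.679 and 0.411 in denervated ones. All denervated values lay under 1 (-2.71, adjusted p = 3.9e-11), and the cytokine Il15 (-2.46) and the hormone musclin, Ostn (-2.23), were likewise reduced. The 2 that rose were Musk, which stands in this list as well, and Gdnf, a growth factor for motor neurons, from 0.474 ± 0.266 to 3.23 ± 1.03 (1.505, adjusted p = 0.00053).

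Genes of growth arrest rose beside genes of the cell cycle. In the p53 list, 13 of 26 were higher and 6 lower. Cdkn1a, the cyclin kinase inhibitor p21, was at 5.799, 6.27, 5.75 and 6.68 in basal libraries and at 114, 121, 93.6 and 105 in denervated ones. The values were alike within each group and far apart between them (3.93, adjusted p = 3.4e-11). Eda2r, a receptor of the TNF family, rose from 13.1 ± 3.06 to 193 ± 35.6 (3.796), and Gadd45b (-1.78) and cyclin G, Ccng1 (-1.38), fell. Of 52 genes of the cell cycle, 30 rose (57.7%) and 7 fell, and between 21 and 32 rose with single libraries left out. Rrm2, which supplies deoxynucleotides, rose from 0.654 ± 0.409 to 8.62 ± 1.61 (2.56, adjusted p = 9.4e-06) and Top2a by 1.58. Most genes of the cell cycle list had low values, and Aurka, a mitotic kinase, fell by 1.44. Genes of the circadian clock were mixed, with 7 of 19 higher, such as Per1 (1.71), and Bhlhe41 (-1.67), Nfil3, Hlf and Cry1 lower. The hour of collection was not given in the labels, and its part in these values was not tested. Glucocorticoid-responsive genes did not move together, since Mt2, Lcn2, Errfi1 (1.86), Per1 and Tsc22d3 rose while Fkbp5 (-1.31), Zbtb16 (-2.304), Klf9 and the receptor gene Nr3c1 fell (9 higher and 3 lower of 16 with equal library sums). In the acute phase list, 7 of 23 rose (30.4%) and 6 fell (26.1%), close to the 27.8% and 27.7% of all genes (8 and 3 with equal library sums). Lipocalin, Lcn2, was at 2.18 (adjusted p = 0.0038) and complement C3 at -1.58. Genes of cholesterol and lipid synthesis numbered 6 higher and 10 lower of 35, 14 and 5 with equal library sums. The desaturase Scd1 (-1.89) and its regulator Srebf1 (-1.46) fell, and Srebf2, which controls cholesterol genes, rose by 0.96 (adjusted p = 1.8e-06).

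Cytoskeletal genes rose in 23 of 47 cases (48.9%) and fell in 6. Tubb6, a beta tubulin, was at 12.3, 9.71, 13.5 and 14.003 in basal libraries and 114, 131, 85.2 and 89.2 in denervated ones. Myl12a, a light chain of non-muscle myosin, went from 148 ± 13.1 to 1024 ± 113 (2.78, adjusted p = 4.4e-12). In contrast to Tubb6 (2.98, adjusted p = 5.8e-10), Tuba8, the alpha tubulin of adult muscle, fell by 1.999. Collagen and matrix genes were lower in 28 of 60 cases (46.7%), and higher in 7, with Col22a1, a collagen of the muscle-tendon junction (-1.93, adjusted p = 0.0066), and Thbs4, a thrombospondin (-1.71), in front. Against them, Thbs1 (3.02), Cyr61 (2.33) and the protease inhibitor Timp1 (2.29) rose. The matrix counts became 13 higher and 14 lower with equal library sums. There the median change was -0.18 for the list and 0.35 for all genes, so the list stayed below all genes.

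Markers of cells other than fibers were examined as lists, and in bulk tissue fewer cells of a type and less RNA per cell cannot be told apart. Endothelial and pericyte markers were lower in 23 of 24 cases, the exception being Abcc9, with a sum over the list of 1420.1 to 1599.8 in basal and 803 to 903 in denervated libraries, and 14 were lower with equal library sums. Kdr, the main VEGF receptor of endothelium, was at 74.5, 77.8, 67.8 and 53.4 in basal libraries and 25.4, 23.1, 23.03 and 23.9 in denervated ones (-1.47, adjusted p = 8.2e-08), and Sox18 (-1.48) and Cldn5 (-1.39) fell as well. Fibro-adipogenic and tendon markers were lower in 13 of 22 cases (sums 848 to 1117 and 466 to 658), or 7 with equal library sums, such as Dpt (-1.299) and Pi16 (-1.22), whereas the tendon factor Scx rose from 2.11 ± 0.4897 to 22.8 ± 6.21 (2.91, adjusted p = 1.3e-09). Of 34 macrophage and leukocyte markers, only Cd68 (3.77, from 1.37 ± 0.883 to 31.3 ± 11.4), Spp1 (2.36), Gpnmb (1.27) and S100a8 were higher, the last losing its call in 9 of 19 alternatives. Another 6 were lower, each by at least 2-fold, and 24 were not called, Csf1r, Itgam and Ptprc among them. The sums of the list, 108 to 471 in basal and 124 to 350.5 in denervated libraries, overlapped. With equal library sums the macrophage counts were 6 higher and 0 lower, but the median change was 0.22 for the list and 0.35 for all genes. Only 2 markers of this list were lower without basal replicate 3 or denervated replicate 4, and 3 without basal replicate 1 or denervated replicate 3. The part of these cells in the other results was not tested.

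Markers of Schwann cells and nerve, the tissue cut by the operation, were higher in 4 and lower in 5 of 16 cases. Prx, which stabilizes the myelin sheath (-1.71, adjusted p = 0.0001), and Pmp22, a membrane protein of myelin (-1.55, adjusted p = 4.6e-06), fell, as did Mal and L1cam. Ngfr, the neurotrophin receptor that marks Schwann cells without an axon (1.13, adjusted p = 8.6e-05), and Uchl1 (1.15), Erbb3 and Tubb3 rose, the last losing its call in 10 of 18 alternatives. The sum of the list was 56.9 to 85.4 in basal and 35.8 to 44.2 in denervated libraries. Satellite cell markers were higher in 9 and lower in 7 of 21 cases, or in 10 and 1 with equal library sums. Pax7, Pax3, Myf5, Vcam1 and Spry1 were not called, and none of the 7 lower ones fell by 2-fold or more. Tnfrsf12a, the TWEAK receptor, which denervated fibers also express, went from 6.38, 6.79, 7.88 and 17.1 to 152, 145, 141 and 149. Its basal replicate 4 was the highest of its group and still far under the denervated libraries (3.91, adjusted p = 1.7e-10). Cdh15, a cadherin of muscle precursors, rose by 1.65, and Tmem8c, the fusion protein myomaker, was under 0.1 in each basal library and between 0.967 and 3.67 after denervation (1.46, adjusted p = 8e-06). In the list of smooth muscle and blood genes, Smtn, Acta2, Myh11 and Tagln were lower and Des, which fibers express strongly, was higher (0.28), and 9 were lower without basal replicate 4.

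To ask which genes differ between loss of the nerve and disuse with the nerve in place, denervated muscle was compared directly with WT muscle immobilized for 3 days. Limma called 5297 genes different between these groups (38.9%), 2789 higher (20.5%) and 2508 lower (18.4%) in denervated muscle. With equal library sums the counts were 5499 higher and 1183 lower. Denervated and immobilized muscle share their basal libraries, so only their direct difference was tested.

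The receptor genes and Myog differed between the groups. Myog was at 1.58, 1.996, 4.02 and 4.63 in immobilized libraries, against 1.22 ± 0.349 in basal and 104 ± 16.1 in denervated muscle, a difference between denervated and immobilized muscle of 4.76 (SE 0.24, adjusted p = 1.2e-11). Chrna1 was at 13.03, 12.3, 14.4 and 9.58 after immobilization, with a difference of 3.83 (adjusted p = 3.5e-10), and Chrnd differed by 4.35 and Chrng by 3.35. Each denervated library lay above each immobilized one for these genes. Chrnb1 was intermediate in immobilized muscle at 56.4 ± 5.41 and differed by 0.85 (adjusted p = 1.1e-06), whereas Chrne, at 3.95 ± 2.34, did not pass (-0.395, adjusted p = 0.38). Other genes far higher after denervation than after immobilization were Krt18 (3.91), Cdkn1a (3.604), Ces2c (3.56), Rrad (3.36), Gdf5, Runx1 (3.17) and Pln (2.89), all with an adjusted p of at most 3.5e-05. Rrad and Runx1 had nonetheless intermediate levels after immobilization, 11.6 ± 5.46 and 10.03 ± 2.104.

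Several atrophy genes did not separate the 2 kinds of disuse. Trim63 was at 521, 1069.7, 939 and 589.5 in immobilized libraries and Fbxo32 at 1020.00, 1906, 1194 and 863, ranges that overlapped those of denervated muscle (0.23, adjusted p = 0.54, and 0.28, adjusted p = 0.6). The same held for Ankrd2 (-0.34), Eda2r (-0.26), Hspb7 (-0.26), Eif4ebp1 (0.08), Psma7 (-0.01) and Cd68 (0.395), none of which passed the test, and for the decreases of Gpd1 (-0.39), Smox (-0.43) and Kdr (-0.08). A p that misses the threshold does not show that the levels were equal. By family, 2 of 17 core proteasome genes were higher in denervated than in immobilized muscle (5 of 26 for the regulatory particle), against 46 of 50 ribosome biogenesis genes, 46 of 83 ribosomal protein genes and 19 of 28 endoplasmic reticulum chaperones, beside the 20.5% of all genes. These family counts were made on the deposited scale only, and equal library sums raise the number of genes higher in denervated muscle from 2789 to 5499.

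The oxidative and fast-fiber genes were lower after denervation than after immobilization as well. This was so for 37 of 38 genes of complex I, 20 of 25 citrate cycle genes and 23 of 26 fast sarcomere genes, beside 18.4% of all genes. These counts too were not repeated under another scaling, and with equal library sums 1183 instead of 2508 genes were lower in all. Perm1 was at 158, 187, 152 and 165 in immobilized libraries, between the basal and denervated ranges, and differed by -3.88 (adjusted p = 5.3e-15). Kcnc1 (-3.43) and Asb12 (-2.67) also stood well under their immobilized levels. In the stretch-responsive list, 9 of 16 genes were lower in denervated than in immobilized muscle and 3 higher, on the deposited scale. Among the atrophy ligases, 11 of 30 were lower and 4 higher, beside 18.4% and 20.5% of all genes. Lmod2 (509 ± 127), Pdlim3 (1480 ± 260), Myom3 and Mthfd2, which rose after denervation, were higher still after immobilization. Other genes also had their highest mean in immobilized muscle. Lmcd1 was at 461, 353, 704 and 554 there, -3.11 for denervated minus immobilized (adjusted p = 2.3e-08), Xirp2 at 3956 ± 668 (-1.97), Myh2, whose range overlapped that of basal muscle, at 2031 ± 526 (-3.71) and Sesn1 at 41.04 ± 9.24 (-1.66, adjusted p = 2e-07). Sesn3 was higher after denervation than after immobilization (1.18, adjusted p = 0.00015), and the difference for Sesn2 was -0.04 (adjusted p = 0.92). The levels of Irs1 showed a similar split, 49.95 ± 6.92 in immobilized muscle, close to basal muscle, and 9.08 ± 2.94 in denervated muscle (-2.37, adjusted p = 6.6e-09).

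**Figure D5:**
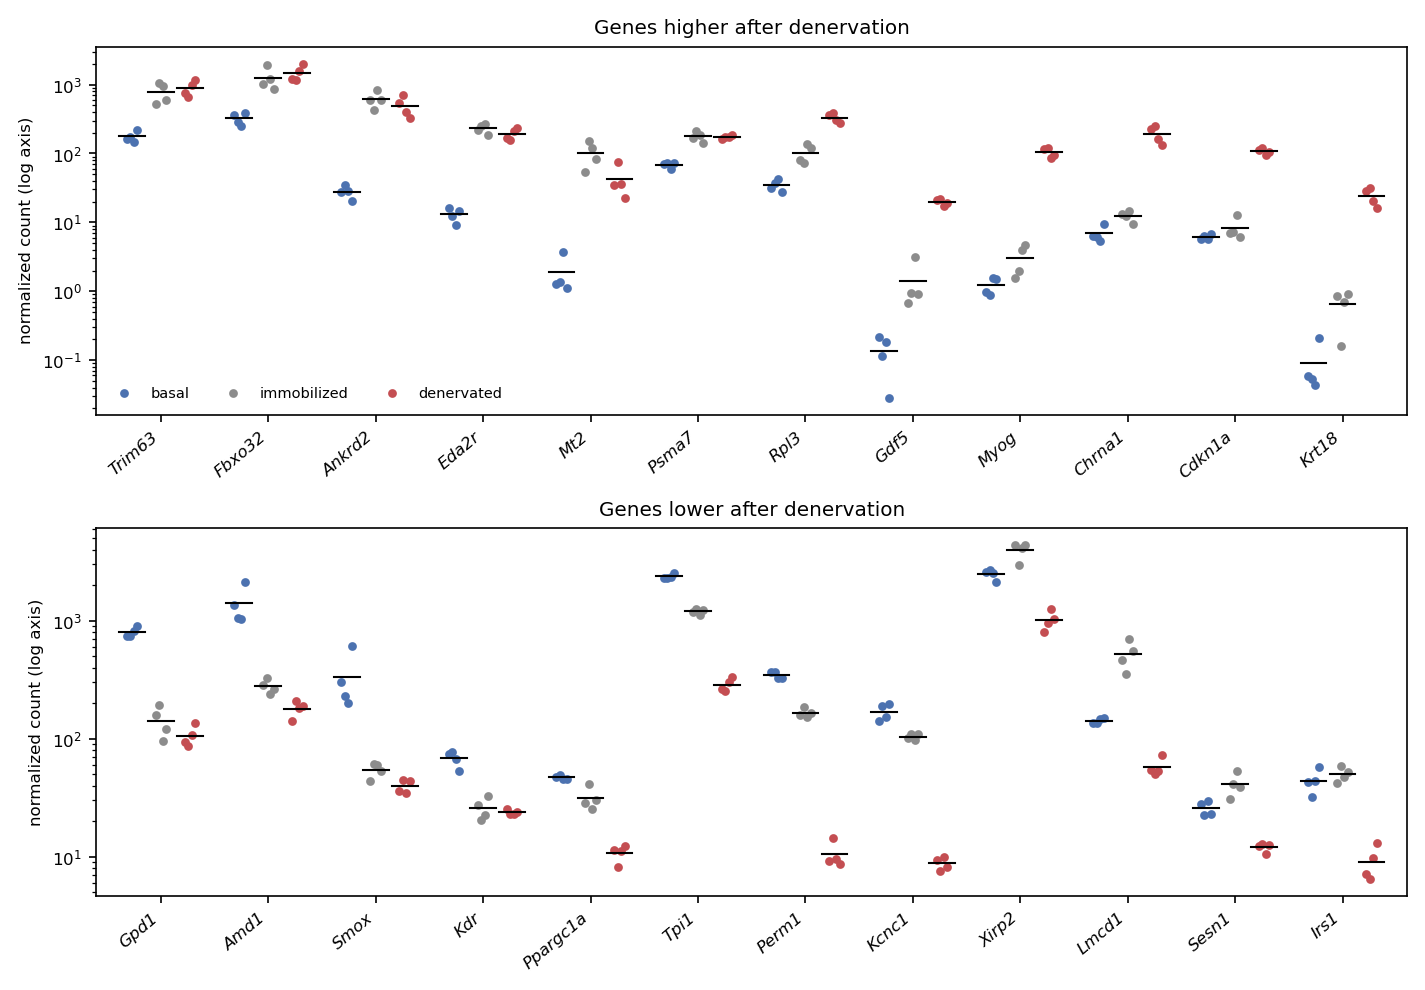
Normalized counts on a log axis in each of the 4 basal (blue), 4 immobilized (grey) and 4 denervated (red) WT libraries of the set, with the group mean as a black line, for 12 genes higher (top) and 12 genes lower (bottom) after denervation than in basal muscle. Immobilized libraries overlap denervated ones for Trim63, Fbxo32, Ankrd2, Eda2r and Gpd1, lie near basal ones for Chrna1, Cdkn1a and Irs1, and lie above both for Lmcd1 and Sesn1.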

How the data were processed

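TA muscle RNA was sequenced in 2 sets, and only set 2 was used (20 libraries, 5 groups). Per the labels, the authors' processing named FastQC, cutadapt 1.7.1, RSEM 1.2.20, limma and edgeR on GRCm38, and RSEM divides reads of similar transcripts by estimation. The authors deposited a signal per gene: normalized counts on a linear scale, 1 table for all libraries, whose read totals are not given in the sources used here. The table lists 13809 genes.

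Genes of at least 1 in at least 1 library were fitted as log2(value + 1) with limma 3.58.1 in R 4.3.3 (lmFit, eBayes with a trend, 1 coefficient per group, Benjamini-Hochberg adjustment), after a test on simulated data. Shares and ratios were tested by exact two-sided permutation over libraries (scipy 1.17.1). Gene coordinates are GENCODE M21 and promoters RefSeq, both GRCm38.

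The members and gene lists were chosen with earlier results of these data known. Named were the given markers, the 10 largest called changes in each direction among genes with a mean of at least 5 in the higher group and groups without overlap, the 3 largest called changes in each direction of each list, all receptor subunits and developmental sarcomere genes, and 17 fixed genes. Where 5 or fewer members of a list changed, the rest of them were named after their values were seen, as were the genes set against immobilized muscle. The same holds for the macrophage and satellite cell markers given as not called. Some genes that the rule selects are not reported here. Alternatives were the scaling, added constant, filter, moderation, groups fitted, thresholds, a replicate block and leaving out each library.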

Additional observations from a re-analysis of the deposited data

Results flagged for a closer look

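Single libraries stood apart from the other 3 of their group in 39 of 612 groups of 4 values checked (6.37%), by a gap to the nearest of them that took most of the range, of a size that chance gives in about 1 of 20 groups. Basal replicate 4 held 13 of these, with Dtna at 80.2, Krt18 at 0.211, Mettl21c at 90.9, Myom3 at 5.12, Tpi1 at 2555, Idh2 at 94.8, Rpl3l at 487, Hspb8 at 377, Tnfrsf12a at 17.1, Nrip1 at 43.3, Dnajb5 at 239.7, Pdlim3 at 323.7 and Slc16a3 at 500.06 normalized counts. Denervated replicate 1 held 7, of which 5 are sarcomere genes of slow or developing fibers, Tnni1 at 8.202, Myl3 at 15.5, Myh8 at 19.03, Tnnt2 at 9.29 and Actc1 at 23.5, all the highest of the group, beside Psma4 at 180.7 and Srxn1 at 135.75.

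The other basal values were Chrna9 at 0.335 and Psmg4 at 2.61 in replicate 1, Sdhd at 296.0, Ddit3 at 22.7 and Dnaja4 at 113 in replicate 2, and Ctsc at 55.6, Mt2 at 3.74, C3 at 128 and S100a8 at 5.70 in replicate 3. The other denervated values were Perm1 at 14.5, Ddit3 at 4.87, Hspb7 at 2083 and Mt1 at 52.6 in replicate 2, Il15 at 0.699 in replicate 3, and Kbtbd13 at 0.365, Fbxo30 at 51.2, Sdhd at 107, Hlf at 9.53 and Psmg4 at 5.83 in replicate 4. All of these genes except Myh8 passed the test, and Tnni1 did not without denervated replicate 1 (0.73).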

How the results depend on the processing

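The count of changed genes stayed between 6969 and 8239 over the alternatives of filter, added constant, scaling, moderation and groups fitted, and between 6987 and 7404 with single libraries left out. A fold change of at least 2 left 2014 genes (855 higher, 1159 lower), and 933 (396 and 537) against immobilized muscle. Equal library sums gave 6353 higher and 1886 lower, and 5499 and 1183 against immobilized muscle. Which scaling is closer to the RNA per fiber was not tested. With the replicate block 7495 genes were called (3764 higher, 3731 lower). Same-numbered libraries did not deviate together (r of -0.03, -0.03, -0.17 and 0.11), but low correlations cannot show that the numbers carry no pairing. Of 299 named genes that were followed singly, 257 kept their call under all their alternatives. With equal library sums Capn7 (0.0052), Bag1 (0.0976), Slc38a10 (0.1179), Cars2 (0.0341) and Hars2 (0.0551) changed sign. With single libraries left out, the difference ranged from 8.7426 to 9.2562 for the Chrng to Chrne log2 ratio, from -3.8389 to 0.075 percentage points for the Myh4 share, from 0.0055 to 0.0105 for Myh7 and from 0.0973 to 0.2235 for Myh3 plus Myh8, where 3 against 4 libraries cannot reach the threshold. The size of the receptor ratio rests on basal Chrng values far under 1 in every setting. Without 1 library, Tnni1 (0.73, denervated replicate 1), Psmb9 (-0.59, denervated replicate 4) and Cars2 (-0.34, denervated replicate 2) lost their call. Calls that the absence of any of several single libraries ended were those of Asb1, Psmb8, Etv5, Tpm3, Casp8, Casp9, Prkaa1, Itga7, Pomt2, Slc38a10, Tsc22d3, S100a8, Tubb3, Des, Pars2, Acacb, Slc39a14 and Myh6. Depth is not known, so that counting error at low values was not separated from the spread between libraries.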
